A study of Mus musculus with 2 samples.

Results

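The 9 genes described here encode the enzymes that cut or unfold proteins in the endosomes and lysosomes of thymic antigen-presenting cells. They are the cysteine cathepsins Ctss, Ctsl, Ctsb, Ctsh and Ctsz, the asparaginyl endopeptidase Lgmn, the aspartic protease Ctsd, the thymus-specific serine protease Prss16 and the thiol reductase Ifi30. They were taken by symbol from the 55487 genes of the count matrix, and each of the 9 matched 1 row. RNA was counted in single medullary thymic epithelial cells (mTECs) of wild-type (WT) female C57BL/6J mice aged 4 weeks. Each mouse was injected intraperitoneally once a day, 7 times, with spermidine, a polyamine, at 15 mg/kg, or with the vehicle phosphate-buffered saline (PBS). After CD45+ cells had been depleted, mTEChi (with the stage that expresses Aire) and mTEClo past that stage were sorted. The 4 samples were tagged with barcoded antibodies to CD45 and MHC class I (hashtags, HT) and pooled in 1 droplet run: PBS replicates 1 and 2 carried HT4 and HT5, and spermidine replicates 1 and 2 carried HT2 and HT3. Whether replicates were different mice is not in the labels, and the p-values below therefore reflect only how much the tagged samples vary, which can be technical variation.

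Proteins taken up or formed in a cell reach MHC class II molecules after lysosomal proteases have cut both the antigen and the invariant chain (encoded by Cd74) that blocks the peptide groove. In mice, cathepsin L is known for the last cuts of the invariant chain in cortical thymic epithelial cells (cTECs), and cathepsin S for the same step in dendritic cells and B cells. Prss16 is known from cTECs, where it shapes the peptides that select CD4+ T cells, and Ifi30 (also called GILT) reduces the disulfide bonds of antigens so that proteases can reach them. Legumain activates other proteases and cuts antigens after asparagine.

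Genes of the list lie on separate chromosomes apart from Prss16 and Ctsl, both on chromosome 13 (GENCODE M21, GRCm38). Ctss spans chr3:95526786-95556403 on the plus strand, Ctsl chr13:64359337-64370890 on the minus strand, Ctsb chr14:63122462-63145923 on the plus strand, Ctsh chr9:90054152-90076089 on the plus strand, Ctsz chr2:174427493-174439039 on the minus strand and Lgmn chr12:102394084-102439813 on the minus strand. Ctsd spans chr7:142375911-142388038, Prss16 chr13:22002173-22009742 and Ifi30 chr8:70762774-70766663, all on the minus strand. RefSeq (GRCm38.p6) gave a window before the transcription start for 6 of the 9 members: Ctss, Ctsl, Ctsz, Ctsd, Lgmn and Ifi30. The 250 bases before the start are given here for Ctss, Ctsz and Ifi30, the 3 genes whose highest class mean was in myeloid- or dendritic-like cells and whose window lies outside the GENCODE span of the gene. Capitals mark matches, on either strand, to CACGTG, the E-box core that also sits in the element of lysosomal genes bound by TFEB, or to GAAA, 2 bases of any kind and GAAA again, a pattern of interferon-response elements. No match of one pattern overlapped a match of the other.
Ctss, chr3:95526536-95526785, plus strand: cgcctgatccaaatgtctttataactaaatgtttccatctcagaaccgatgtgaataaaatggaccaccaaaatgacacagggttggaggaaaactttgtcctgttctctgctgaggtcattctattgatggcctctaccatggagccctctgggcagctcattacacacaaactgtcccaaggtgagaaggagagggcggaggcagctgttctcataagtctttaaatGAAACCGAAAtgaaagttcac
Ctsz, chr2:174439040-174439289, minus strand: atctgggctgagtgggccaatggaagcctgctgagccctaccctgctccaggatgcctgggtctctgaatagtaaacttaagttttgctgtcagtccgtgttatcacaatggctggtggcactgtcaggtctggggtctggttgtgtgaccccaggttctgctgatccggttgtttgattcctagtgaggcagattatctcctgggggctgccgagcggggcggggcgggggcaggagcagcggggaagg
Ifi30, chr8:70766664-70766913, minus strand: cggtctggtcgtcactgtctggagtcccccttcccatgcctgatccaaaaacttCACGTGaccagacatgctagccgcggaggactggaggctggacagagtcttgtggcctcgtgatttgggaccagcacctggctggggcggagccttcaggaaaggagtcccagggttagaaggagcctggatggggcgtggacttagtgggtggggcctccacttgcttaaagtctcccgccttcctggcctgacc
The Ctss window held 1 match to the interferon-response pattern, which began 21 bases before the start, and 2.98% of all 32851 RefSeq windows of this length held one. The Ifi30 window held 1 CACGTG, 196 bases before the start, and 6.02% of all windows held one. Neither pattern was in the Ctsz window. The windows of Ctsl, Ctsd and Lgmn overlap the GENCODE span of their own gene and are not shown. CACGTG was found 2 times in that of Ctsd and 1 time each in that of Ctsl and in 1 of the 2 windows of Lgmn. A match is only a run of letters and says nothing of binding.

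Hashtag counts assigned 4709 cells to the 4 samples, from 993 to 1374 per sample with median depths of 15736 to 17365 unique molecular identifiers (UMIs) per cell. Clusters of all kept cells gave 12 classes from marker genes, each called "like" since no annotation of the cells was used, and 3 of 19 clusters stayed unnamed. Levels of classes are in CPM, UMIs per 1000000 of the class in that sample after its total was scaled by a TMM factor (trimmed mean of M-values). Levels of all mTECs, of single clusters within a class and of summed gene lists used unscaled totals. Aire averaged 782 ± 44.2 CPM (± SD, n = 4 samples) in the Aire-stage class and 38.0 ± 6.70 in the tuft-like class. Ccl21a averaged 4521 ± 660 CPM in the immature class. Ptprc, the gene of CD45, averaged 381 ± 115 CPM in the myeloid- or dendritic-like class against 7.20 ± 2.32 in the Aire-stage class. The thymocyte-like class, used below as a reference for free RNA, held Aire at 243 ± 176 CPM, so it carries RNA of mTECs. Under an assignment with 6 hashtags, 19.0% of the assigned cells were doublets. Classes come from clusters of these same cells, so levels across classes are a description without a test. Errors are SD over the 4 samples, and SE is the standard error of a log2 fold change (spermidine over PBS) from the fit.

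Ctss, the elastase-like cathepsin that works at neutral pH, had its highest mTEC levels in the enterocyte- or hepatocyte-like and Aire-stage classes. It averaged 273 ± 32.3 CPM and 238 ± 12.4 CPM there, and the ranges over samples overlapped. The myeloid- or dendritic-like class stood above both at 899 ± 52.2 CPM. Neuroendocrine-like cells had 172 ± 42.2 CPM, microfold-like cells 134 ± 54.7 CPM and transit-amplifying-like cells 115 ± 23.3 CPM, each overlapping the next. Immature cells had 47.5 ± 5.98 CPM, and the tuft-like class 21.3 ± 5.27 CPM, with no overlap between these neighbours. In single cells thinned to 5000 UMIs, 59.2% of Aire-stage cells and 6.54% of tuft-like cells held a Ctss UMI, against 28.4% of thymocyte-like cells. The tuft-like share lay below that of the reference, which itself carries RNA of mTECs, so it cannot tell expression from free RNA. Without thinning the shares were 82.7%, 18.7% and 33.1%. Thinning left out 135 Aire-stage, 75 tuft-like and 46 thymocyte-like cells with fewer UMIs. The lowest median depth of a sample was 19740 UMIs in Aire-stage cells, 12605 in tuft-like cells and 5490 in thymocyte-like cells.

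Ctsl followed another order. Its highest level was in the immature class, the cells that make the chemokine Ccl21a, at 518 ± 131 CPM. Muscle-like cells followed with 400 ± 113 CPM and keratinocyte-like cells with 371 ± 205 CPM, and these 3 ranges overlapped. Transit-amplifying-like cells had 180 ± 43.9 CPM and the Aire-stage class 132 ± 24.2 CPM. The tuft-like class had 75.9 ± 18.3 CPM, the thymocyte-like class 60.0 ± 30.9 CPM and the enterocyte- or hepatocyte-like class 50.3 ± 28.3 CPM. The class with the highest mTEC mean of Ctss thus had the lowest mean of Ctsl among the 12 classes, from 128 Ctsl UMIs. Its range overlapped those of neuroendocrine-like (54.2 ± 11.8 CPM) and microfold-like cells (58.7 ± 22.1 CPM), among others, so this low end has no clear order.

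The spread of Ctsl over cells differed between its high classes. In immature cells the 27 cells with the most Ctsl UMIs, of 271, held 43.6% of them, and the median cell held 4. In keratinocyte-like cells 32 of 328 cells held 92.7% and the median cell held 0, with 575 UMIs in 1 cell. Aire-stage cells were between these, with 76.1% of Ctsl in 126 of 1267 cells and 335 UMIs in 1 cell of PBS replicate 1. Thinned to 5000 UMIs, 77.5% of immature, 23.6% of Aire-stage, 22.1% of tuft-like and 21.2% of keratinocyte-like cells held a Ctsl UMI, against 18.5% of thymocyte-like cells. Unthinned, these shares were 82.7%, 46.1%, 43.7%, 36.9% and 30.7%. The mean of 371 CPM in keratinocyte-like cells therefore describes a few cells, and without the highest cell of each sample it was 209 ± 103 CPM. Without that cell the immature class still had 463 ± 116 CPM. The same tallies for Ctss in Aire-stage cells were 34.2% in 126 cells and a median of 3 UMIs per cell, as the plot of UMIs held by the highest cells shows.

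**Figure D1:**
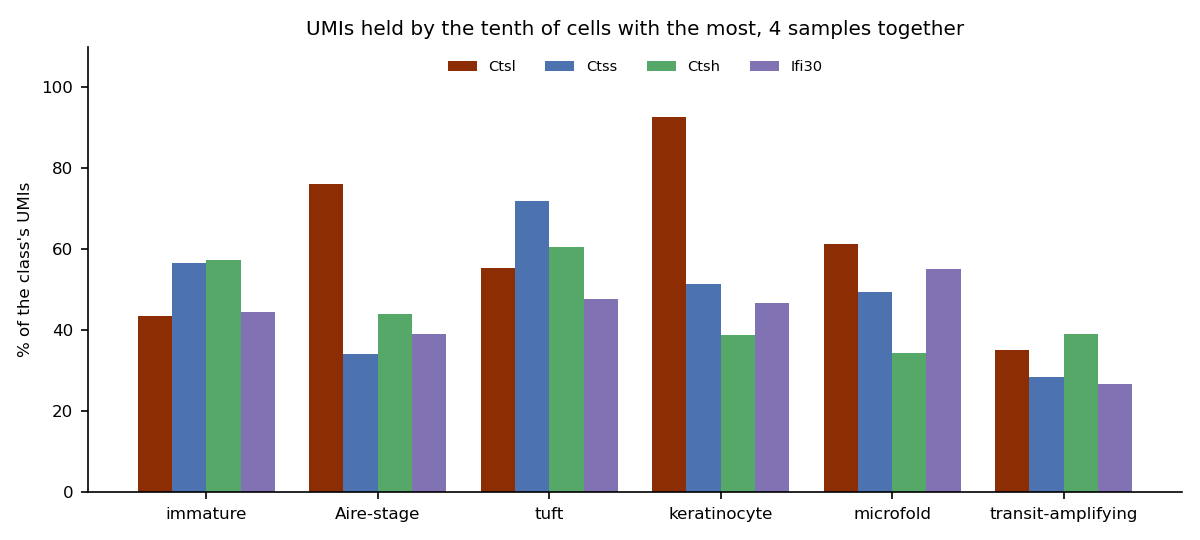
Bars give the percentage of a class's UMIs of Ctsl, Ctss, Ctsh or Ifi30 (y axis) that lay in the 1 in 10 cells with the most, in 6 mTEC classes (x axis), over the 4 samples together. Ctsl reached 92.7% in keratinocyte-like and 76.1% in Aire-stage cells and 43.6% in immature cells.

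Ctsh, a cathepsin that trims peptides from their amino end, was set apart by microfold-like cells, mTECs that resemble the antigen-sampling M cells of the gut. The 4 samples had 2023, 1648, 1961 and 1657 CPM there, in the order PBS 1, PBS 2, spermidine 1 and spermidine 2. The lowest of them was above every sample of every other class. Aire-stage cells followed with 477 ± 48.5 CPM, overlapping myeloid- or dendritic-like cells at 472 ± 78.2 CPM and enterocyte- or hepatocyte-like cells at 441 ± 102 CPM. Immature cells had 42 ± 3.73 CPM, tuft-like cells 39.0 ± 4.52 CPM and muscle-like cells 7.70 ± 11.1 CPM. A Ctsh UMI was present in 97.8% of thinned microfold-like cells and in 12.3% of thymocyte-like cells. Within the Aire-stage class Ctsh was unequal, on library totals: cluster 1, with 1060 CPM of Aire, had 600 ± 45.1 CPM, cluster 3 had 349 ± 30.9 and cluster 4, with 380 CPM of Aire, had 273 ± 30.4.

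Ctsz (cathepsin X), which removes single residues from the carboxyl end, was highest in myeloid- or dendritic-like cells at 746 ± 86.1 CPM. Microfold-like, Aire-stage and enterocyte- or hepatocyte-like cells had 586 ± 61.7, 495 ± 60.9 and 455 ± 119 CPM, with overlapping ranges. Tuft-like cells had 121 ± 8.0 CPM and keratinocyte-like cells 103 ± 9.62 CPM. Over the 12 classes the log2 levels of Ctss and Ctsz had a Pearson r of 0.83, the highest of the 36 pairs of members, and Ctsl and Ctsz had an r of -0.66. These r values describe 12 points that share 4 samples and are given without a p.

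Ctsb, a broad lysosomal protease, varied least over the classes, with 6.49 times as much RNA in the highest class as in the lowest, the smallest such ratio of the 9 members. Its class means ran from 41.2 ± 11.9 CPM in ciliated-like cells to 216 ± 43.0 CPM in enterocyte- or hepatocyte-like cells and 267 ± 99.3 CPM in myeloid- or dendritic-like cells. Aire-stage cells had 97.8 ± 4.86 CPM and tuft-like cells 76.6 ± 10.3 CPM, beside 73.1 ± 10.4 CPM in the thymocyte-like class. Lgmn was sparse: Aire-stage cells had 21.7 ± 4.16 CPM, keratinocyte-like cells 20.4 ± 3.28 CPM and microfold-like cells 3.56 ± 1.55 CPM (10 UMIs in all). Without thinning, 7 of 217 microfold-like cells (3.23%) held an Lgmn UMI. Myeloid- or dendritic-like cells had 66.2 ± 30.6 CPM of Lgmn.

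Ctsd, the aspartic protease of lysosomes, was high in 2 mimetic classes, mTECs that resemble cells of other organs. Microfold-like cells had 438, 437, 470 and 335 CPM and keratinocyte-like cells 448, 404, 302 and 460 CPM, in the sample order given above. These 2 classes overlapped each other and no other class: the next, enterocyte- or hepatocyte-like cells, had 142 ± 43.5 CPM. Aire-stage cells had 44.6 ± 3.10 CPM, below tuft-like cells at 61.3 ± 3.36 CPM, and transit-amplifying-like cells had 12.3 ± 3.20 CPM. In transit-amplifying-like cells, which divide, Ctsd was thus at its lowest and Ifi30 at its highest among named mTEC classes. Ifi30 had 537, 702, 748 and 763 CPM there, above the Aire-stage class at 495, 492, 512 and 442 CPM without overlap. Microfold-like cells, whose range reached into that of transit-amplifying-like cells, had 392 ± 162 CPM of Ifi30, tuft-like cells 81.1 ± 10.4 CPM and myeloid- or dendritic-like cells 1616 ± 263 CPM. The unnamed cluster 2, which carries Aire at 1074 ± 69.0 CPM and the cell-cycle gene Mki67 at 102 ± 15.2 CPM, had 858 ± 40.8 CPM of Ifi30 and 15.8 ± 3.02 CPM of Ctsd.

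Prss16, the cTEC-associated protease, was low throughout. Its highest level among the named classes was in transit-amplifying-like cells with 25.6, 41.3, 37.1 and 29.2 CPM, and the ranges of the classes below, from ciliated-like cells at 19.6 ± 4.72 CPM downward, did not reach it. The unnamed cluster 2 had a higher mean, 38.5 ± 5.40 CPM. Aire-stage cells had 18.7 ± 3.35 CPM, tuft-like cells 9.36 ± 0.957 CPM and thymocyte-like cells 7.82 ± 5.37 CPM. Psmb11, a gene that defines cTECs, had 0.202 ± 0.403 CPM in transit-amplifying-like cells (1 UMI) and 6.76 ± 2.23 CPM in Aire-stage cells. All 9 cTEC markers were detected in every class, with a summed level of 218 to 289 CPM in transit-amplifying-like and 1687 to 2104 CPM in Aire-stage samples. Of the myeloid or dendritic markers, 13 of 13 were detected in Aire-stage cells at a summed 918 to 1034 CPM per sample, 725 ± 81.9 CPM of it from Lyz2, and their part in the levels of Ctss, Ctsz and Ifi30 was not tested.

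**Figure D2:**
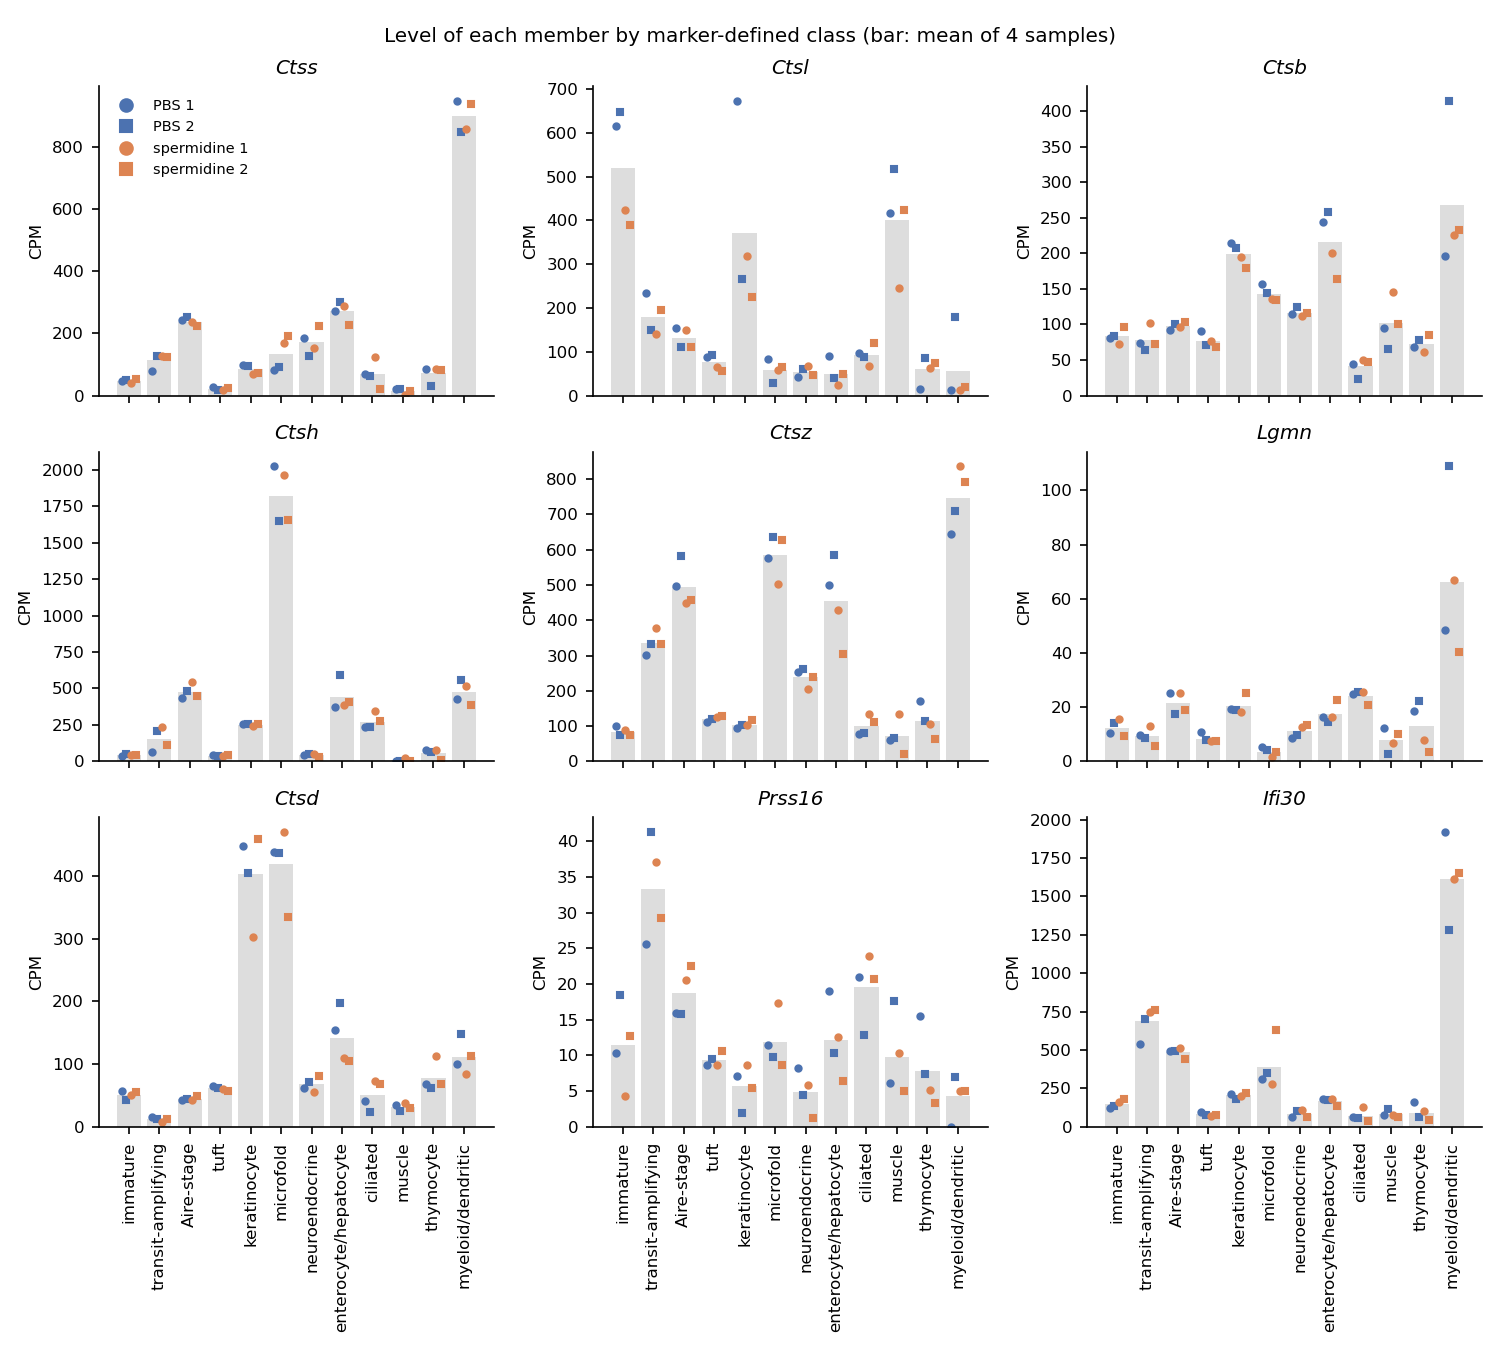
Each panel gives the level of 1 member in CPM (y axis) in 12 marker-defined classes (x axis), where grey bars are means of 4 samples and points are the samples, blue for PBS and orange for spermidine. Ctsh stood out in microfold-like cells at 1822 CPM, Ctsl in immature cells at 518 CPM and Ctss in myeloid- or dendritic-like cells at 899 CPM.

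The genes with the most similar class patterns, over 10964 genes with at least 10 CPM on average, were found by Pearson r of log2(CPM + 1) across the 12 classes. For Ctss they were Slamf7 (r = 0.93) and Degs1 (r = 0.92), for Ctsl Amotl1 (r = 0.92) and Olfml2a (r = 0.91), and for Ctsb Sft2d2 (r = 0.90) and Myd88 (r = 0.89). Ctsh was closest to Cd80 (r = 0.90) and Ly6i (r = 0.90), Ctsz to Dok1 (r = 0.94) and Kynu (r = 0.92), and Lgmn to Naaa (r = 0.91) and Lman2 (r = 0.86). Ctsd was closest to Spns2 (r = 0.90) and Abhd12 (r = 0.88), Prss16 to Mtfmt (r = 0.91) and Odc1 (r = 0.88), and Ifi30 to Syngr2 (r = 0.92) and Arhgap22 (r = 0.92). Cd80, a co-stimulatory molecule, was itself among the markers that named the Aire-stage class. Pairs of this kind are sensitive to the measure: with Spearman's rho or a floor of 50 CPM, each member kept at most 1 of its 2 genes.

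Spermidine was then compared with PBS within each class, on counts summed per hashed sample. No member passed an adjusted p of 0.05 in any of 13 fits, which covered all mTECs, the mimetic cells together, and 11 single classes or unnamed clusters (edgeR's quasi-likelihood test, Benjamini-Hochberg over all genes). All mTECs and mimetic cells here hold mTEC-named classes only, without unnamed clusters 2, 7 and 14. Cluster 2, which carries Aire, had 69 and 69 cells with PBS and 163 and 119 with spermidine. The background was low as well. In all mTECs 0 of 22177 genes passed (0.0%), in Aire-stage cells 0 of 18421 (0.0%) and in immature cells 0 of 9930 (0.0%). In tuft-like cells 42 of 13255 genes passed (0.317%), and in mimetic cells 1 of 17412 (0.00574%). In transit-amplifying-like cells 1 of 9222 genes passed (0.0108%), in keratinocyte-like cells 2 of 10560 (0.0189%) and in neuroendocrine-like cells 1 of 10996 (0.00909%). Enterocyte- or hepatocyte-like cells, microfold-like cells and unnamed cluster 14 had 0 (0.0%), unnamed cluster 2 had 3 of 12218 (0.0246%) and unnamed cluster 7 had 1 of 8821 (0.0113%). At an unadjusted p under 0.05 the members numbered 2 of 9 in all mTECs, where 13.6% of all genes reached it, 1 of 9 in Aire-stage cells (6.5% of all genes) and 1 of 9 in tuft-like cells (10.8% of all genes). The members numbered 2 of 9 in immature cells, where 4.66% of all genes reached it, and 2 of 9 in mimetic cells, where 7.81% did. With the unnamed clusters added to all mTECs, 0 of 9 members passed the threshold. At an unadjusted p under 0.05 there were then 4 of 9 members and 4022 of 22514 genes. DESeq2 called 1 member in all mTECs and 0 in the Aire-stage and tuft-like classes.

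Of all member comparisons, Ctsl in tuft-like cells came closest to the threshold. It had 89.2 and 93.2 CPM in the PBS samples and 65.7 and 55.4 CPM in the spermidine samples, so both spermidine values lay below both PBS values, as for 41.2% of tested genes in either direction. The log2 fold change was -0.57 (SE 0.113), and the adjusted p was 0.0897 by edgeR's quasi-likelihood test. The share of thinned tuft-like cells with a Ctsl UMI was 24.1% and 24.1% with PBS and 20.8% and 16.9% with spermidine, beside 18.5% over all thymocyte-like cells (exact permutation test, two-sided, p = 0.33, the smallest that 2 against 2 samples allow). The tuft-like class joins clusters 0, 5 and 15, whose mix differed between the samples: of the 378 and 210 cells with PBS, cluster 15 held 34 and 22 and cluster 5 held 121 and 64. Of the 235 and 170 cells with spermidine, cluster 15 held 10 and 9 and cluster 5 held 92 and 69. Levels of these clusters used library totals and are not on the scale of the class levels above. Within cluster 0 Ctsl was 78.8 and 69.9 CPM with PBS and 63.7 and 52.7 CPM with spermidine, and within cluster 5 it was 80.3 and 90.4 against 46.9 and 48.7 CPM. The share of all genes whose groups do not overlap was not counted within single clusters. In cluster 15 it was 96.7 and 148 CPM with PBS and 107 and 75.0 CPM with spermidine, and the groups overlapped. Of 15 alternative settings 5 put Ctsl past the threshold, all 15 gave a negative value, from -0.86 to -0.49, and adjusted p-values ran from 2.96e-04 to 0.267. With 1 replicate left out the adjusted p was 0.0156 without PBS replicate 1, 0.0727 without PBS replicate 2, 0.00581 without spermidine replicate 1 and 0.0525 without spermidine replicate 2. Such a fit has 1 sample in an arm, and the spread comes from the other group alone, so the lone sample is assumed to vary like it.

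In other classes Ctsl did not pass the threshold. Immature cells had 615 and 646 CPM with PBS and 424 and 389 CPM with spermidine, without overlap, as for 35.6% of genes. The log2 fold change was -0.55 (SE 0.134, adjusted p = 0.799, edgeR). With 1 replicate left out, and so 1 sample in an arm, the adjusted p was 0.975 and 0.9998 without PBS replicate 1 or 2, and 0.00873 and 0.150 without spermidine replicate 1 or 2. Over these 4 samples Ccl21a in immature cells was 4921 and 5178 CPM with PBS and 4268 and 3715 CPM with spermidine, and its part in the Ctsl values was not tested. The unnamed cluster 7, which carries all 14 tuft markers, had 146 and 166 CPM with PBS and 96.3 and 97.0 CPM with spermidine without overlap, as for 34.3% of genes there (log2 fold change -0.62, SE 0.167, adjusted p = 0.562). In all mTECs Ctsl was 197 and 160 CPM with PBS and 134 and 123 CPM with spermidine (log2 fold change -0.44, SE 0.112, adjusted p = 0.242). Beside this value, the 3 classes with the highest Ctsl made up less of the mTEC-named cells with spermidine: immature cells were 7.95% and 9.17% with PBS and 5.005% and 7.39% with spermidine, keratinocyte-like cells 10.99% and 9.17% against 6.93% and 7.78%, and muscle-like cells 1.43% and 1.61% against 0.962% and 0.792% (exact permutation test, two-sided, p = 0.33 for each). The part of these shares in the value of all mTECs was not tested. In PBS replicate 1, a single keratinocyte-like cell held 575 of the 1223 Ctsl UMIs of its class, and a single Aire-stage cell 335 of 711. Their joint part in the value of all mTECs was not tested either. DESeq2 gave an adjusted p of 0.049998 for Ctsl in all mTECs, just under the threshold.

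Ctsl had overlapping groups in further classes, and its sign was not the same in all. In Aire-stage cells it was 155 and 111 CPM with PBS and 150 and 111 CPM with spermidine, and the groups overlapped (log2 fold change -0.04, SE 0.218). A single cell held 47.1% of the Ctsl UMIs of PBS replicate 1 there, and without the highest cell of each sample the levels were 82.1 and 83.9 CPM with PBS and 124 and 92.8 CPM with spermidine. Keratinocyte-like cells had 673 and 267 CPM with PBS and 319 and 225 CPM with spermidine, with overlap and with 47.0% of the first value in 1 cell. The log2 fold change there was -0.74 (SE 0.390, adjusted p = 0.873, edgeR). Neuroendocrine-like cells had 41.5 and 61.6 CPM with PBS and 66.7 and 47.2 CPM with spermidine, with overlap (log2 fold change 0.25, SE 0.269). The log2 fold change was also positive in microfold-like cells (0.11, SE 0.418) and in unnamed cluster 14 (0.51, SE 0.402). Over the 11 single classes and unnamed clusters fitted, Ctsl was lower with spermidine in 8 and higher in 3. These classes come from the same 4 samples and are no replicates of each other. Whether the effect differed between classes was not tested.

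**Figure D3:**
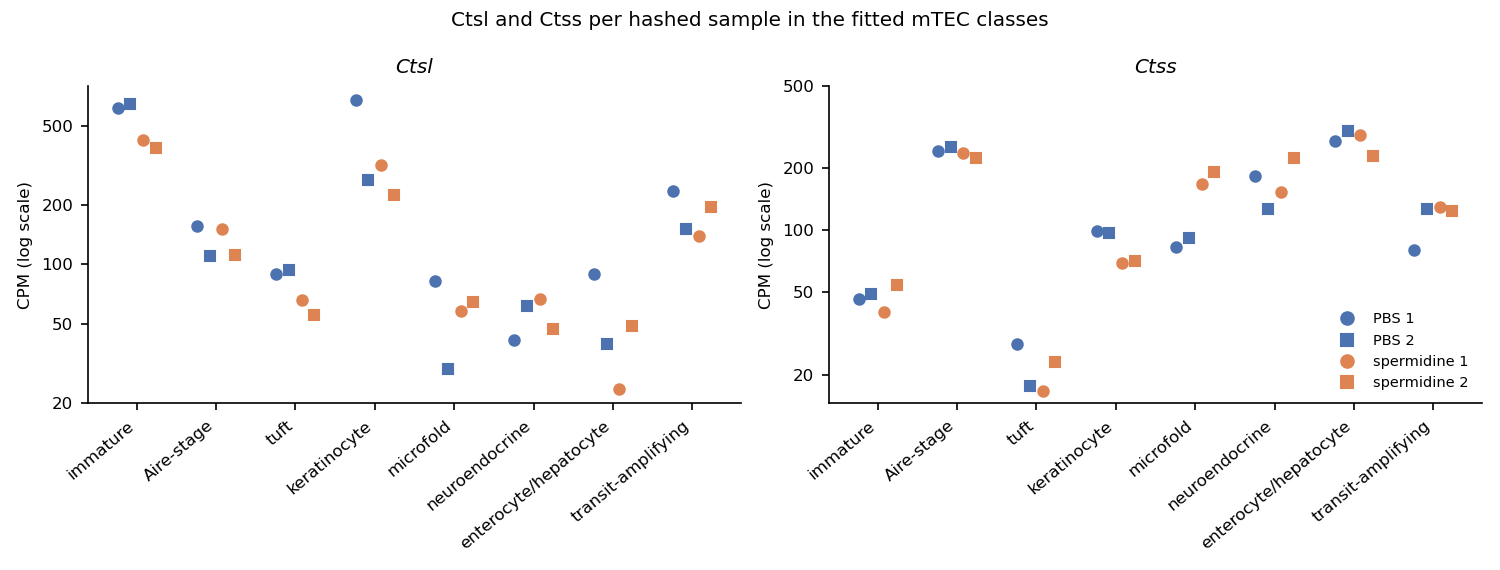
Points give the level of Ctsl (left) and Ctss (right) in CPM on a log axis in each hashed sample for 8 mTEC classes (x axis), blue for PBS and orange for spermidine. Both spermidine values of Ctsl lay below both PBS values in immature cells (424 and 389 against 615 and 646 CPM) and in tuft-like cells (65.7 and 55.4 against 89.2 and 93.2 CPM).

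Ctss stood out in microfold-like cells, where it was 82.7 and 91.5 CPM with PBS and 168 and 192 CPM with spermidine. The groups did not overlap, as for 32.4% of the 8494 genes tested there, and 0 of those genes passed the threshold (0.0%). The log2 fold change was 1.04 (SE 0.217), the largest of any member that was tested in a named class, with an adjusted p of 0.373 (edgeR). With 1 replicate left out, and so 1 sample in an arm, the adjusted p was 0.820 and 0.394 without PBS replicate 1 or 2, and 0.0320 and 0.257 without spermidine replicate 1 or 2. The share of thinned cells with a Ctss UMI overlapped between groups, at 32.0% and 17.4% with PBS and 34.0% and 29.7% with spermidine, and 28.4% of thymocyte-like cells held one. The class II loading genes of the pathway list had positive values for 9 of 9 tested in microfold-like cells, and their median was 0.56 on the log2 scale. Of these genes 0 passed the threshold and 5 had an unadjusted p under 0.05 (edgeR), as had 409 of all 8494 genes tested there. Myeloid or dendritic markers there summed to a mean of 973 CPM with PBS and 1249 CPM with spermidine (10 of 13 detected, with Clec9a, Siglech and Xcr1 at 0), and their part in the Ctss values was not tested. In keratinocyte-like cells Ctss had the other sign, with 99.0 and 96.8 CPM with PBS and 69.3 and 71.3 CPM with spermidine, without overlap, as for 35.6% of genes there (log2 fold change -0.44, SE 0.172, adjusted p = 0.775). In Aire-stage cells it was 242 and 253 CPM with PBS and 236 and 223 CPM with spermidine, a log2 fold change of -0.13 (SE 0.0741, adjusted p = 0.851).

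In all mTECs together, Ctss, Ctsh, Prss16 and Ifi30 had higher values with spermidine in both samples. Ctss was 117 and 132 CPM with PBS and 150 and 146 CPM with spermidine, and Ctsh 254 and 311 against 374 and 321 CPM. Ifi30 was 224 and 282 CPM with PBS and 332 and 299 CPM with spermidine (log2 fold change 0.35, SE 0.140, adjusted p = 0.375). Beside these, the Aire-stage class, which ranked among the 3 highest of the 12 classes for each of these 4 genes, made up 22.6% and 31.4% of mTEC-named cells with PBS and 42.7% and 41.8% with spermidine (exact permutation test, two-sided, p = 0.33). The mix of sorted mTEChi and mTEClo cells can set these shares, and their part in the values of all mTECs was not tested. Within Aire-stage cells Ctss and Ifi30 had log2 fold changes of -0.13 (SE 0.0741) and -0.07 (SE 0.0896), the value of Ifi30 within 1 SE of 0. Neither had the positive sign seen in all mTECs, while Ctsh had 0.10 (SE 0.115). Other fits gave both signs. Ctss and Ifi30 had 0.22 (SE 0.0900) and 0.18 (SE 0.122) in mimetic cells, and 0.08 (SE 0.235) and 0.48 (SE 0.172) in immature cells. In tuft-like cells they had -0.24 (SE 0.249) and -0.24 (SE 0.119). Prss16 had 15.9 and 15.9 CPM with PBS and 20.5 and 22.5 CPM with spermidine in Aire-stage cells (log2 fold change 0.42, SE 0.173, adjusted p = 0.777). Ctsz was 496 and 581 CPM with PBS and 448 and 456 CPM with spermidine there (log2 fold change -0.27, SE 0.0987, adjusted p = 0.765). Of the members 7 of 9 had groups without overlap in all mTECs, where 47.4% of all genes did, and 3 of 9 in Aire-stage cells, where 36.3% did.

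**Figure D4:**
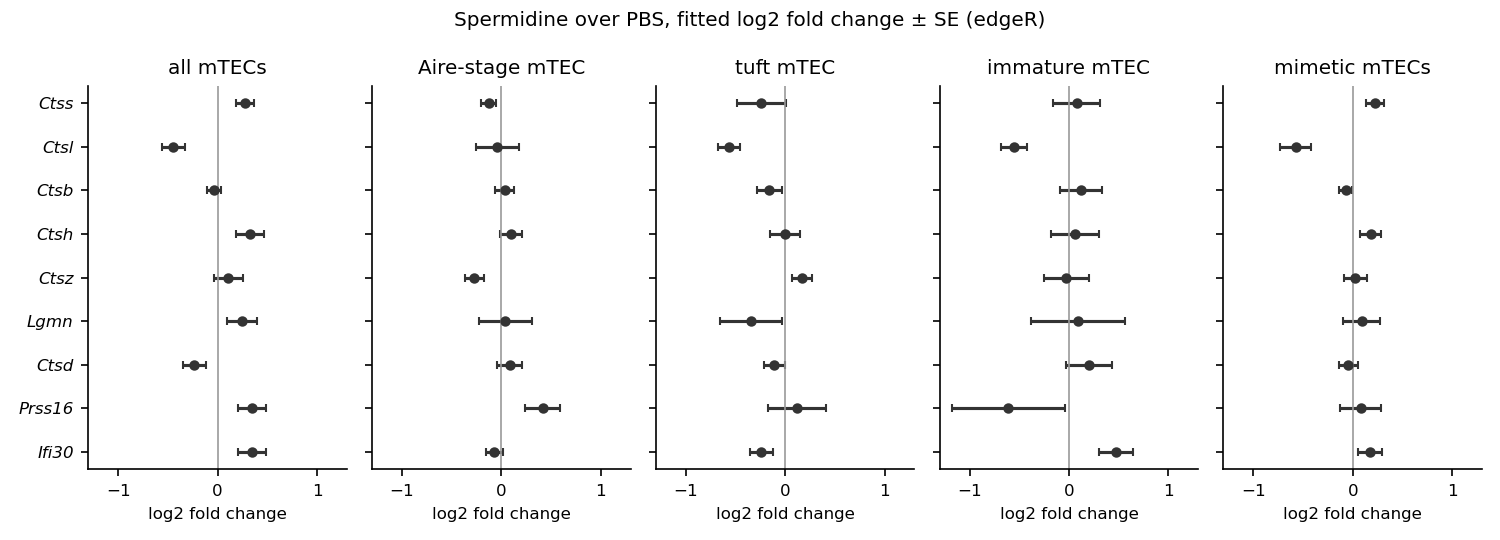
Points give the fitted log2 fold change of spermidine over PBS (x axis) of each member (y axis) in 5 comparisons, and bars give its SE. Ctsl was at -0.44 in all mTECs, -0.57 in tuft-like, -0.55 in immature and -0.04 in Aire-stage cells, and no member passed an adjusted p of 0.05.

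The remaining genes of the pathway were read from 5 lists, and no gene of any list passed the threshold in any fit, so none is named for a change. The median log2 fold change over all genes was 0.0048 in all mTECs, -0.0028 in Aire-stage cells and 2.25e-04 in tuft-like cells. The 10 class II loading genes, which include Cd74 and H2-DM, all had positive values in all mTECs, with a median of 0.39, and all 10 in tuft-like cells, with a median of 0.26. In Aire-stage cells 4 were positive and 6 negative, with a median of -0.04. Positive values also prevailed in microfold-like (9 of 9, median 0.56), transit-amplifying-like (10 of 10), mimetic (9 of 10) and keratinocyte-like cells (8 of 10) and in unnamed cluster 7 (6 of 8). Negative values prevailed elsewhere: 6 of 9 were negative in immature cells (median -0.08), 10 of 10 in enterocyte- or hepatocyte-like cells (median -0.21), 8 of 10 in neuroendocrine-like cells (median -0.31), 9 of 10 in unnamed cluster 2 (median -0.19) and 7 of 10 in unnamed cluster 14 (median -0.29). The 13 other lysosomal proteases had a median of -0.05 in all mTECs (6 positive, 7 negative), and the 12 tested in Aire-stage cells a median of -0.13 (2 positive, 10 negative). Cathepsin inhibitors, 11 of 14 tested, had a median of 0.39 in all mTECs and 0.20 in Aire-stage cells, and fewer of them a median of -0.16 in mimetic cells (3 positive, 5 negative), -0.26 in keratinocyte-like cells (2 positive, 6 negative) and -0.16 in both neuroendocrine-like and enterocyte- or hepatocyte-like cells. The 16 genes of lysosome biogenesis and sorting had a median of -0.03 in all mTECs, and 15 of them a median of 0.02 in tuft-like cells. Of the 9 placental cathepsins, relatives of Ctsl, 2 were tested in Aire-stage cells and 0 in tuft-like, immature or mimetic cells, and their summed level was 16.4 CPM in Aire-stage and 0.132 CPM in tuft-like cells.

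Across classes the same lists gave a further description. Summed class II loading RNA was 39652 CPM in Aire-stage cells, 22395 CPM in transit-amplifying-like cells, 12072 CPM in immature cells and 2092 CPM in tuft-like cells. Cathepsin inhibitors summed to 5197 CPM in keratinocyte-like cells, where Cst6, the gene of cystatin E/M that inhibits cathepsin L and legumain, was the highest of the list, against 785 CPM in immature cells and 449 CPM in tuft-like cells. The sum of lysosome biogenesis and sorting genes stayed between 843 and 1907 CPM in all 12 classes.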

How the data were processed

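Single-cell RNA and hashtags were read from 1 droplet run (10x Genomics, 3' version 3), as the labels' protocols state. The authors deposited raw counts, UMIs for each gene in each barcode, and the file headers name Cell Ranger 7.1.0. mm10 is listed among the builds of the submitters' processing notes; the annotation is not given in the sources used here. Of 12139 barcodes, 8534 passed a floor of 1000 UMIs and 500 genes and a ceiling of 15% mitochondrial UMIs. Seurat 5.3.0 (HTODemux, positive quantile 0.99, the 4 labelled hashtags) gave 4709 of them to 1 sample each, and 1027 doublets and 2798 negatives were left out. Doublets were not called from RNA. Samples held 17668782 to 25673749 UMIs.

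Cells were clustered in scanpy 1.11.5 (2000 variable genes, 30 principal components, 15 neighbours, Leiden resolution 1) and named from 19 marker lists. Ctsl was the only member among the variable genes. Keratinocyte-like cluster 6 also carried all goblet markers. Counts were summed per sample and class and tested in edgeR 4.0.16 (TMM, filterByExpr, quasi-likelihood test, adjusted p of 0.05), which was tested on simulated data. The simulation used Aire-stage sums only, with log2 changes of 1 or 2, so smaller changes and smaller classes were not tried. It gave every gene the same fixed dispersion, not estimated from these data, so genes that vary more between samples were not tried either. All mTECs, the mimetic cells and the Aire-stage, tuft-like, transit-amplifying-like and immature classes were fitted whatever their size (transit-amplifying-like cells numbered 17 in spermidine replicate 2), other classes and unnamed clusters with at least 20 cells in every sample. Levels in CPM used TMM factors over all sums. Levels of all mTECs, of mimetic cells, of single clusters within a class and of summed gene lists used library totals. DESeq2 1.42.0, other scalings, filters, assignments and clusterings were alternatives. Named genes were the 9 members, the 2 most alike per member and up to 3 list genes past the threshold per list. The members and lists were chosen with earlier results of these data known.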

Additional observations from a re-analysis of the deposited data

Results flagged for a closer look

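Hashtags HT6 and HT7, which no label ties to a sample, were the single assigned hashtag of 2406 kept cells under an assignment with 6 hashtags. They lie outside every comparison above, and no group was given to them.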

How the results depend on the processing

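The side of the threshold, and the direction of values more than 1 SE from 0, were kept in 395 of 405 alternative log2 fold changes. Another 9 moved past the threshold. For the 11 values within 1 SE of 0 a change of sign was not counted, and their alternatives held 31 sign changes. The count of members past an adjusted p of 0.05 was 0 in each comparison and stayed 0 in 173 of 188 alternatives. DESeq2 called 1 member in all mTECs. With no filter on low counts there were 3 in all mTECs and 1 each in tuft-like, mimetic, keratinocyte-like and microfold-like cells and in unnamed cluster 2. Leaving out 1 replicate, which leaves 1 sample in an arm and takes the spread from the other group, gave 0 to 1 in tuft-like, immature and microfold-like cells and in unnamed clusters 14 and 7. Tuft-like cells gave 1 with 6 hashtags, and 1 with each gene's highest cell left out, an alternative chosen after seeing the data, as were adding the unnamed clusters to all mTECs and cluster 7 to tuft-like cells. Ctsb in tuft-like cells ran from -0.29 to 0.016 on the log2 scale with 1 replicate left out, the positive value without PBS replicate 1, against -0.16 with all, and the cause was not tested. Replicate numbers did not pair the samples (correlation of deviations -0.0046 in all mTECs and 0.034 in Aire-stage cells), and a replicate block left 0 members called in every comparison. Genes called over the whole table varied more: in all mTECs 0 by edgeR, 416 by DESeq2 and 2415 with no filter, in Aire-stage cells 0, 66 and 6, in tuft-like cells 42, 30 and 487, in immature cells 0, 1 and 55, and in mimetic cells 1, 42 and 740. Levels stayed within 1 SD in 75 of 79 alternatives. With library totals Ctsh, Ctsz and Ctsd in microfold-like cells were 1472, 474 and 340 CPM and Lgmn in ciliated-like cells 26.9 CPM. Shares of cells with a UMI moved with depth in 35 of 36 alternatives, and the 2 most alike genes changed in 18 of 18.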
